A study of Mus musculus with 16 samples.

Results

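The genes described here are 41 genes of the cell cycle and DNA replication in mouse haematopoietic progenitors, and the measurement is chromatin accessibility by ATAC-seq, an assay that uses Tn5 transposase to cut and tag DNA not packed away in nucleosomes. The rule that names the genes uses no measured value, but the members were chosen with earlier results of these data known. Peaks of the 8 deposited lists were merged where they overlapped, which gave 122020 union regions, and the 304 union regions within 20 kb of the gene spans belong to the 41 genes. All 41 genes were found in the gene table and no region lay within reach of 2 of them.

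By its title, the study asked how Flt3-ITD and cooperating leukaemia mutations alter cell identity. Per the labels, the cells were haematopoietic progenitors (MPP, multipotent progenitors) from mice 21 days old. Set 1 held wildtype mice, single mutants with Flt3-ITD or with Runx1-het, and the double mutant Flt3-ITD/Runx1-het, and set 2 held wildtype, NUP98-HOXD13, Flt3-ITD and NUP98-HOXD13/Flt3-ITD mice. Flt3-ITD is a duplication inside the Flt3 gene, found in acute myeloid leukaemia, that leaves this growth factor receptor active. Runx1-het stands for mice with altered Runx1, a transcription factor of blood formation, in the heterozygous state, and NUP98-HOXD13 is a fusion gene of myeloid neoplasms. The labels give no promoter, Cre driver or strain for these alleles and do not say how the sets differ. Each group had 2 samples but 1 peak list, so no value below has a replicate error and no difference between genotypes could be tested. Read depth was unknown, because the lists hold no read counts.

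As background, a cell divides by duplicating its DNA in S phase and parting the copies in mitosis. Cyclins switch on cyclin-dependent kinases (CDKs), and the E2F factors drive the genes of S phase unless the retinoblastoma family holds them back. FOXM1 and MYBL2 take part in the later wave of mitotic genes. Promoters of these genes often carry short sequence elements. E2F sites are typical of S-phase genes, and the cell cycle genes homology region (CHR) and CCAAT boxes are typical of mitotic genes.

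To show what such promoters look like, the 250 bases upstream of the RefSeq start (GRCm38.p6) are printed 5′ to 3′ on the strand of the gene for 4 genes. Cdk1 and Mcm5 stand for a mitotic kinase and a replication gene, Mad2l1 had the promoter peak that ranked highest by −log10 p among the 41 genes, and E2f2 the one that ranked lowest, with no promoter peak in some lists. Capitals mark matches on either strand to the CHR letters TTTGAA, to the CCAAT box, or to any E2F form, of which TTTCCCGC was the first searched, TTTCGCGC the second, TTTGCCGC the third and TTTGGCGC the fourth.
Cdk1 (chr10:69352913-69353162, minus strand): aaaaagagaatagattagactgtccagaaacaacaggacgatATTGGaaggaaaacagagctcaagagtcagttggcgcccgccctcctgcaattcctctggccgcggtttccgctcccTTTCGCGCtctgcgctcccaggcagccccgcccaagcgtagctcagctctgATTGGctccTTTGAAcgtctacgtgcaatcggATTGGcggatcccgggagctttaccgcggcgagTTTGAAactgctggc
Mcm5 (chr8:75109259-75109508, plus strand): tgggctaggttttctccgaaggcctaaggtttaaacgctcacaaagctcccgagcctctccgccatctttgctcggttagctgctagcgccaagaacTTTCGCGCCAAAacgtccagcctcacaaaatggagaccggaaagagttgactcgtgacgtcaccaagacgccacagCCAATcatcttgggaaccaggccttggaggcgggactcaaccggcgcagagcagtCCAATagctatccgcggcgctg
Mad2l1 (chr6:66534971-66535220, plus strand): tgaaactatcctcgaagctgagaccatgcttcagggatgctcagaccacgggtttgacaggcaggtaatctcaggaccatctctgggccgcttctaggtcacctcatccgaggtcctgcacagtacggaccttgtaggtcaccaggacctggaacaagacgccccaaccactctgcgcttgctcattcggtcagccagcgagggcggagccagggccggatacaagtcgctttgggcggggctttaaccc
E2f2 (chr4:136172024-136172273, plus strand): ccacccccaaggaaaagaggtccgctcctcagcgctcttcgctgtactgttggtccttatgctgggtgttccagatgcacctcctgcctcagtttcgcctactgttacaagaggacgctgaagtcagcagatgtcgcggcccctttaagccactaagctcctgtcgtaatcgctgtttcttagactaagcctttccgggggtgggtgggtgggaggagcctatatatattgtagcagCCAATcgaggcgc

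The Cdk1 promoter held CHR matches 71 and 15 bases before the start, CCAAT matches 208, 80 and 48 bases before it, and an E2F match 131 bases before it. Mcm5 had E2F matches 153 and 149 bases before the start, which overlap on opposite strands and are printed as 1 block of capitals, and CCAAT matches 77 and 22 bases before it. E2f2 had a CCAAT match 13 bases before the start and an E2F match 39 bases after it, outside the printed stretch. None of the searched letters were found in the printed stretch of Mad2l1.

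Such matches were common at the cell cycle genes. RefSeq promoter entries, which run from 250 bases before to 50 after a start, were found for 33 of the 41 genes (36 entries). An E2F match stood in 12 of 36 entries (33.3%), beside 607 of 21263 (2.85%) over all protein-coding entries. CHR stood in 12 (33.3%, beside 16.0%), and CCAAT in 25 (69.4%, beside 38.2%). CHR together with CCAAT was found in 33.3%, beside 6.38%. By role, among mitosis and spindle genes CHR stood in 6 of 8 entries and E2F in 0, and among replication licensing and synthesis genes CHR stood in 1 of 10 and E2F in 6. CCAAT stood in 7 of 8 and 8 of 10 of these, so it did not part the roles. The cyclins and CDKs (CHR in 2 and E2F in 2 of 7 entries) and the genes of transcription control (3 and 3 of 8) showed no such division either. Median GC content was 58.8%, beside 56.3% over all entries, and the median number of CpG dinucleotides was 24, beside 13. A match describes letters only, and E2F forms hold CG, so their share also moves with CpG content; the part of CpG content was not tested.

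The promoters of the cell cycle genes were open in nearly every list. A promoter region is a union region within 500 bp of a RefSeq start, or within 500 bp of either end of the span for the 8 genes with no start in the table (Cdc25c, Foxm1, Ccne2, Ccna2, Mcm4, Wee1, Aurkb and Rb1). A promoter region present in all 8 lists was found for 39 of the 41 genes. Over all protein-coding genes with a start the share was 58.3% (10199 of 17492), and 32 of the 33 members with a start had one. The exceptions were E2f2 and Ccna2. Where the start was known, the authors' peak summits lay at a median of 71 bp upstream over the genes. For 21 of 33 genes the median summit was within 150 bp of the start. The gene medians ran from -579.5 to 639 bp, downstream positive. Only regions within 500 bp of a start were used, so closeness to it was partly set in advance.

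The Ccna2 case was one of distance and not of absence. Ccna2 encodes cyclin A2, which acts in S phase and at entry into mitosis. The region at chr3:36571344-36572464 ended 574 bp inside 1 end of the span (36564865 to 36573038) and was present in all 8 lists. Its −log10 p was 951, 1050, 1024 and 872 in set 1 (in the order wildtype, Flt3-ITD, Runx1-het, Flt3-ITD/Runx1-het) and 1430, 837, 246 and 745 in set 2 (wildtype, NUP98-HOXD13, Flt3-ITD, NUP98-HOXD13/Flt3-ITD). The value of 1430 was the highest at any of the 304 regions.

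Values in all sentences below follow the same order of lists, set 1 first. The −log10 p and the fold enrichment of a peak are the authors' values. The −log10 p depends on the depth of its list, which was unknown, so neither value was used to measure a change between lists. The height of a promoter peak was instead placed within its own list, as the percentage of that list's peaks with a lower −log10 p.

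By this measure the promoters of the cell cycle genes ranked high, with a median over the genes of 95.9, beside 89.5 for all protein-coding promoters with a peak. In single lists the median over the genes ran from 94.2 to 96.8, beside 85.9 to 92.0 for all protein-coding promoters with a peak. In the top 5% of their list were 17 to 25 promoters, a count not made over all promoters. By fold enrichment the median was 89.2, beside 84.1 for all protein-coding promoters, and the order of single genes was another: Cdc25c was then highest (99.8, Mad2l1 95.2) and Cdk6 lowest (43.7, E2f2 46.1). By −log10 p the highest medians belonged to Mad2l1 (99.78), E2f8 (99.76), E2f3 (99.70), Mcm3 (99.54) and Mybl2 (99.50). Mad2l1 encodes a spindle checkpoint protein, E2f8 a repressive E2F, E2f3 an E2F that can activate, Mcm3 a subunit of the replicative helicase and Mybl2 a MYB factor of the mitotic gene wave. The lowest medians were those of E2f2 (39.2), Rbl1 (75.8), Foxm1 (80.5), Cdk6 (80.6) and Top2a (81.4). Transcriptional regulators therefore stood at both ends of the order.

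At Mad2l1, whose sequence is printed above, the promoter peak had a −log10 p of 787, 809, 840 and 812 in set 1 and 1244, 742, 226 and 570 in set 2. Its fold enrichment was 21.7, 22.2, 21.0 and 22.9 in set 1 and 22.8, 21.7, 22.0 and 18.9 in set 2. The p column was lowest in the set-2 Flt3-ITD list, where the fold was within the range of the other lists. At Mcm5, another helicase subunit, the −log10 p was 659, 638, 656 and 640 in set 1 and 970, 651, 165 and 548 in set 2, and the fold was 21.2 to 25.7. The set-2 Flt3-ITD list was again the lowest in the p column, while its fold of 22.1 lay within the range of the others. This list was the shortest, with 84080 peak summits, where the other 7 had 113325 to 138514, and it held 55.3% of the 304 regions, where the others held 67.8% to 78.3%. By fold, Mad2l1 and Mcm5 did not stand for every promoter. At Bub1b the fold was 13.1 in set-2 Flt3-ITD and 17.4 to 27.6 in the other lists. At Plk1 it was 8.75, beside 9.70 to 14.4. By −log10 p, 30 promoters were in the top 25% of the set-2 Flt3-ITD list, and 38 or 39 in each other list. The median percentile of all protein-coding promoters with a peak was also lowest there, at 85.9, beside 89.9 to 92.0 in the other lists. Lists of different length are not comparable by rank, so no change is read from this.

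**Figure D1:**
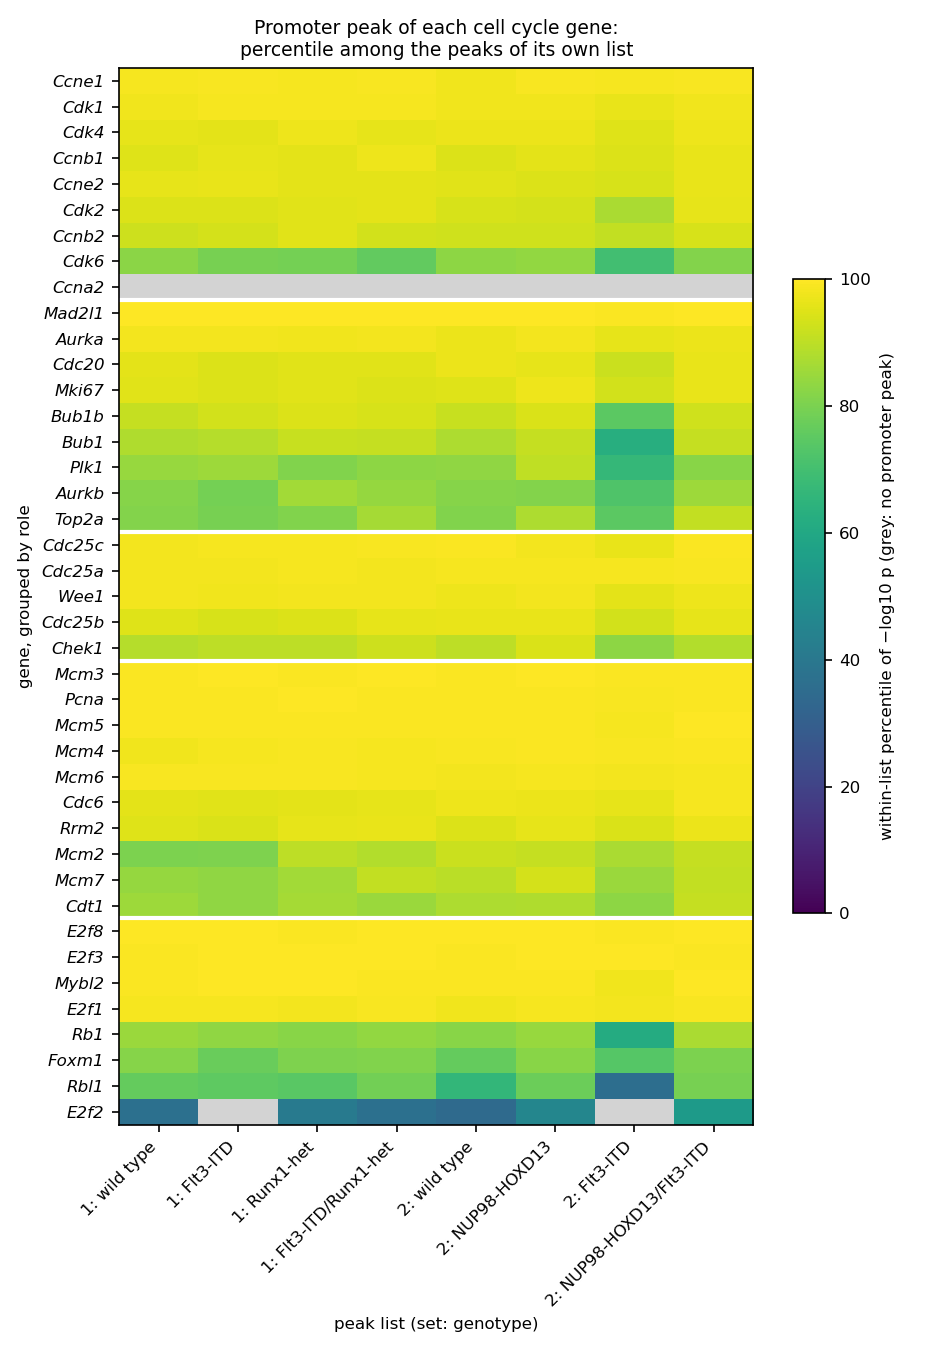
Within-list percentile (colour, 0 to 100) of the −log10 p of the promoter peak for each of the 41 genes (rows, grouped by role and sorted by median) in each of the 8 peak lists (columns). Mad2l1 is between 99.61 and 99.84 in every list, E2f2 is grey (no promoter peak) in both single Flt3-ITD lists, and Ccna2 is grey throughout because its nearest region lies 574 bp from the end of the span.

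Of the 304 regions, 138 (45.4%) were present in all 8 lists, where the share over the 92740 union regions within 20 kb of any protein-coding gene was 36.7%. The latter are called near-gene regions below. A region in a single list was found 38 times (12.5%, beside 17.5% of near-gene regions). Presence differed by the class of the region. Of 44 regions at the genes' own promoters 40 were present in all 8 lists (90.9%), and of 38 regions at the promoter of another gene 29 (76.3%), beside 77.1% of near-gene promoter regions. Of the 222 other distal regions 69 were present in all 8 lists (31.1%, beside 29.7%). Distal regions of the cell cycle genes were thus present in all lists about as often as distal regions near any gene. The regions that varied were small peaks: their highest −log10 p over the lists had a median of 25.6, where regions in all 8 lists had 210, and 4 of the 166 variable regions passed 100, where 110 of the 138 constant ones did.

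**Figure D2:**
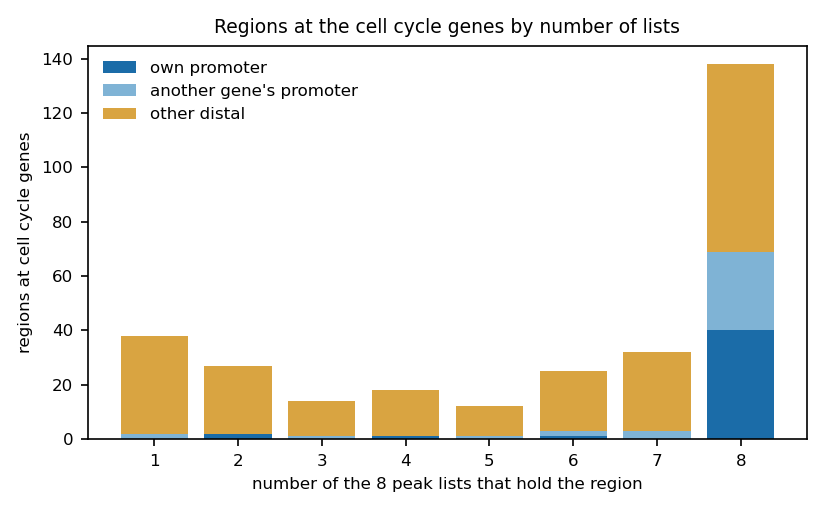
Number of regions at the 41 genes (vertical axis) by the number of the 8 peak lists that hold them (horizontal axis), with colours for own promoters, promoters of other genes and other distal regions. The bar at 8 lists holds 138 regions, 40 of them own promoters, and the bar at 1 list holds 38 regions, 36 of them other distal.

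By role, the share of regions present in all 8 lists was 58.0% (40 of 69) for the 10 genes of replication licensing and synthesis, 51.9% (14 of 27) for the 5 genes of the Cdc25 phosphatases, Wee1 and Chek1, and 49.2% (30 of 61) for the 9 cyclins and CDKs. It was 39.1% (25 of 64) for the 9 genes of mitosis and the spindle checkpoint and 34.9% (29 of 83) for the 8 genes of transcription control. Every region was constant at 5 genes, namely Cdk2, Ccna2, Ccnb1, Mcm4 and Mcm7, and the other 36 had at least 1 variable region. These 5 genes had few regions, 3, 2, 2, 2 and 4 in that order, where the median over the genes was 7. Fewer regions leave fewer that could vary, so this is not read as a trait of these genes. Ccne2 and Mad2l1, also with 2 regions each, had 1 variable region each. No matching share over all protein-coding genes was counted. No test was made of these differences between roles.

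Among the cyclins and CDKs, Cdk1 encodes the kinase that drives entry into mitosis. Its promoter region (chr10:69352203-69353378) was present in all 8 lists, with −log10 p of 408, 472, 528 and 511 in set 1 and 632, 394, 114 and 357 in set 2. The fold was 19.5, 20.5, 22.8 and 22.2 in set 1 and 21.8, 19.9, 18.3 and 19.1 in set 2. In contrast, its 3 distal regions were each present in 7 lists and missing from set-2 Flt3-ITD, so that this list held the Cdk1 promoter alone.

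The largest of them lay in the flank beyond the 3′ end, at chr10:69320449-69321876, with a −log10 p of 115, 148, 115 and 149 in set 1 and, in set 2, 281 in wildtype, 139 in NUP98-HOXD13 and 123 in the double mutant. Its fold in these lists was 17.5 to 29.6, beside 18.3 to 22.8 at the promoter. It was the highest −log10 p of any of the 304 regions that a mutant list gained or lost against its wildtype list. The region inside the span, at chr10:69351067-69351474, had 20.3 to 82.1 and the region upstream, at chr10:69371366-69371950, had 24.1 to 61.3. All 3 were still missing from set-2 Flt3-ITD alone when each list was reduced to the same number of peaks. When a peak had to cover 50% of its region, the one beyond the 3′ end was missing from set-1 Flt3-ITD too, and the upstream one was left in 4 lists. Being missing from this list alone was the most frequent variable pattern at the 41 genes, with 20 regions of 304 (6.58%), beside 5473 near-gene regions (5.90%).

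Cdk6 encodes a kinase of the G1 phase that is expressed in blood progenitors, and its locus held the most distal regions, 25. Of these 10 were present in all 8 lists and 15 varied. The constant ones included chr5:3404637-3405918, inside the span, with −log10 p of 48.8 to 247 and fold of 15.5 to 21.8. The variable ones reached at most 51.2, at chr5:3420872-3421355. By number of distal regions Aurkb (15) and Rb1 (14) followed, and then Bub1b, Cdc6 and Rbl1 with 11 each. These counts were not adjusted for gene length, and a longer span is a wider window. The span of Cdk6 (chr5:3341004-3531008) is far longer than that of Aurkb (chr11:69045624-69051664). Aurkb encodes a kinase of the chromosome passenger complex, and 2 of its distal regions were the promoters of Borcs6 and Tmem107, both constant.

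Ccnb2 encodes a B-type cyclin of mitosis. Its promoter was present in all lists with a fold of 22.0 to 31.5, while all 5 of its distal regions varied. The largest, chr9:70392230-70392912, was missing from both single Flt3-ITD lists and had 29.0 in set-1 wildtype, 17.9 in Runx1-het and 35.7 in the double mutant of that set, and 68.3, 43.0 and 59.3 in the wildtype, NUP98-HOXD13 and double-mutant lists of set 2. Both lists that combine Flt3-ITD with a further mutation thus held the region. This pattern was found at 2 regions of the cell cycle genes (0.658%), beside 558 near-gene regions (0.602%). Whether it holds at this region with equal numbers of peaks in each list was not tested.

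Each of the 9 genes of mitosis had a promoter region in all 8 lists. The proliferation marker Mki67 had −log10 p of 290, 272, 314 and 278 in set 1 and 412, 359, 80.2 and 299 in set 2, at a fold of 15.4 to 18.7. Cdc20, the activator of the anaphase-promoting complex, had the only one of the 304 regions that divided the sets: chr4:118416952-118417876 was present in the 4 set-1 lists (35.7, 60.5, 50.6 and 55.3; fold 10.6 to 14.7) and in no set-2 list. Over near-gene regions that division occurred at 223 (0.240%). Beside its constant promoter region, Cdc20 had a second one within 500 bp of the start, chr4:118437782-118438096, that was present in 4 lists, with 12.5 in set-1 Flt3-ITD, 22.5 in Runx1-het, 32.7 in set-2 wildtype and 25.4 in the set-2 double mutant. Flank regions of Bub1 (chr2:127788556-127789418), Plk1 (chr7:122189374-122189996) and Top2a (chr11:99039797-99040259) were each missing from set-2 Flt3-ITD alone, with values of 50.4 to 110, 26.9 to 86.0 and 47.5 to 76.4 elsewhere. Bub1 and Plk1 encode kinases of the spindle checkpoint and of mitosis, and Top2a the topoisomerase that untangles DNA.

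Of the CDK phosphatases, Cdc25b had a flank region at chr2:131204398-131205124 that was missing from the NUP98-HOXD13 list alone. Its −log10 p was 78.5, 75.5, 83.6 and 50.2 in set 1, 146 in set-2 wildtype, 27.7 in set-2 Flt3-ITD and 46.6 in NUP98-HOXD13/Flt3-ITD. The double mutant therefore held the region that the single NUP98-HOXD13 list did not. The same pattern was found at 836 near-gene regions (0.901%). A flank region of Cdc25c was missing from set-2 Flt3-ITD alone, with 21.9 to 96.8 in the other lists.

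The replication genes had promoters in all 8 lists without exception (10 of 10). Pcna, the sliding clamp of the replication fork, had −log10 p of 594, 575, 758 and 683 in set 1 and 1007, 622, 180 and 541 in set 2. Mcm3 had the highest promoter among the helicase subunits, and all 5 of its distal regions varied, none of them above 47.2. At Mcm5, Cdc6 and Rrm2, 5 of 6, 6 of 11 and 5 of 6 distal regions were present in all 8 lists. These small counts take in any promoters of other genes. The near-gene shares were 29.7% outside promoters and 77.1% at promoters. Cdc6 encodes a loader of the helicase and Rrm2 a subunit of ribonucleotide reductase. Regions near Mcm2 (chr6:88873812-88875462) and Cdt1 (chr8:122550695-122551993) that were missing from set-2 Flt3-ITD alone were the promoters of Podxl2 and Piezo1.

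Apart from Ccna2, E2f2 was the only member with a list in which no promoter peak was found. E2F2 is an activating E2F with known roles in blood cell proliferation. The region over the start, chr4:136171974-136172383, covers the whole of the sequence printed above. It had −log10 p of 21.8 in set-1 wildtype, 25.01 in Runx1-het and 23.3 in the double mutant, and of 22.8, 21.3 and 29.2 in the wildtype, NUP98-HOXD13 and double-mutant lists of set 2. The single Flt3-ITD lists of both sets had no peak there. Where present, the fold was 5.53 to 7.06 and the within-list percentile 34.8 to 54.6, so that this was a small peak and no list held it near the top. The pattern was shared by 60 of 14567 promoter regions and by 558 near-gene regions (0.602%). With the same number of peaks in each list the region was missing from set-2 wildtype as well, so its absence then no longer followed the genotype.

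Both double-mutant lists held further peaks at E2f2. The region just inside the gene, chr4:136172468-136173160, had −log10 p of 9.63 in the set-1 double mutant and 11.4 in the set-2 double mutant. The region upstream of a second RefSeq start, chr4:136180024-136180285, had 14.4 and 17.6 in the same lists. Neither was present in any other list. Of the 304 regions 4 had this pattern (1.32%), beside 366 near-gene regions (0.395%), and the other 2 lay inside Cdk6 and beside Aurkb. This pattern was picked out after its values were seen. Their within-list percentiles were 15.0 and 26.9 for the first region and 23.4 and 39.1 for the second. With equal numbers of peaks the first was gone from both lists and the second was left in NUP98-HOXD13/Flt3-ITD alone. The first was also gone at a −log10 q of at least 10. When a peak had to cover 50% of its region, the first was left in NUP98-HOXD13/Flt3-ITD alone. Merging gaps of 250 bp joined it to the promoter region, which was present in 6 lists.

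Deeper in E2f2, chr4:136185342-136186014 was missing from set-1 wildtype alone, with 74.6, 59.9 and 72.8 in the set-1 mutants and 73.0, 18.4, 27.1 and 47.4 in set 2. Since set-2 wildtype held it, its gain in the set-1 mutants was a gain against 1 of the wildtype lists only. A further region, chr4:136189877-136190416, was absent from both NUP98-HOXD13 lists and present in the other 6, with 31.2, 49.1, 30.5 and 39.4 in set 1, 25.5 in set-2 wildtype and 9.12 in set-2 Flt3-ITD. It was the only one of the 304 regions with that pattern, which 447 near-gene regions shared (0.482%). With equal numbers of peaks it was also missing from set-2 wildtype. The largest E2f2 region lay inside the gene, at chr4:136177180-136178573, and was present in all 8 lists with 40.0 to 163.

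**Figure D3:**
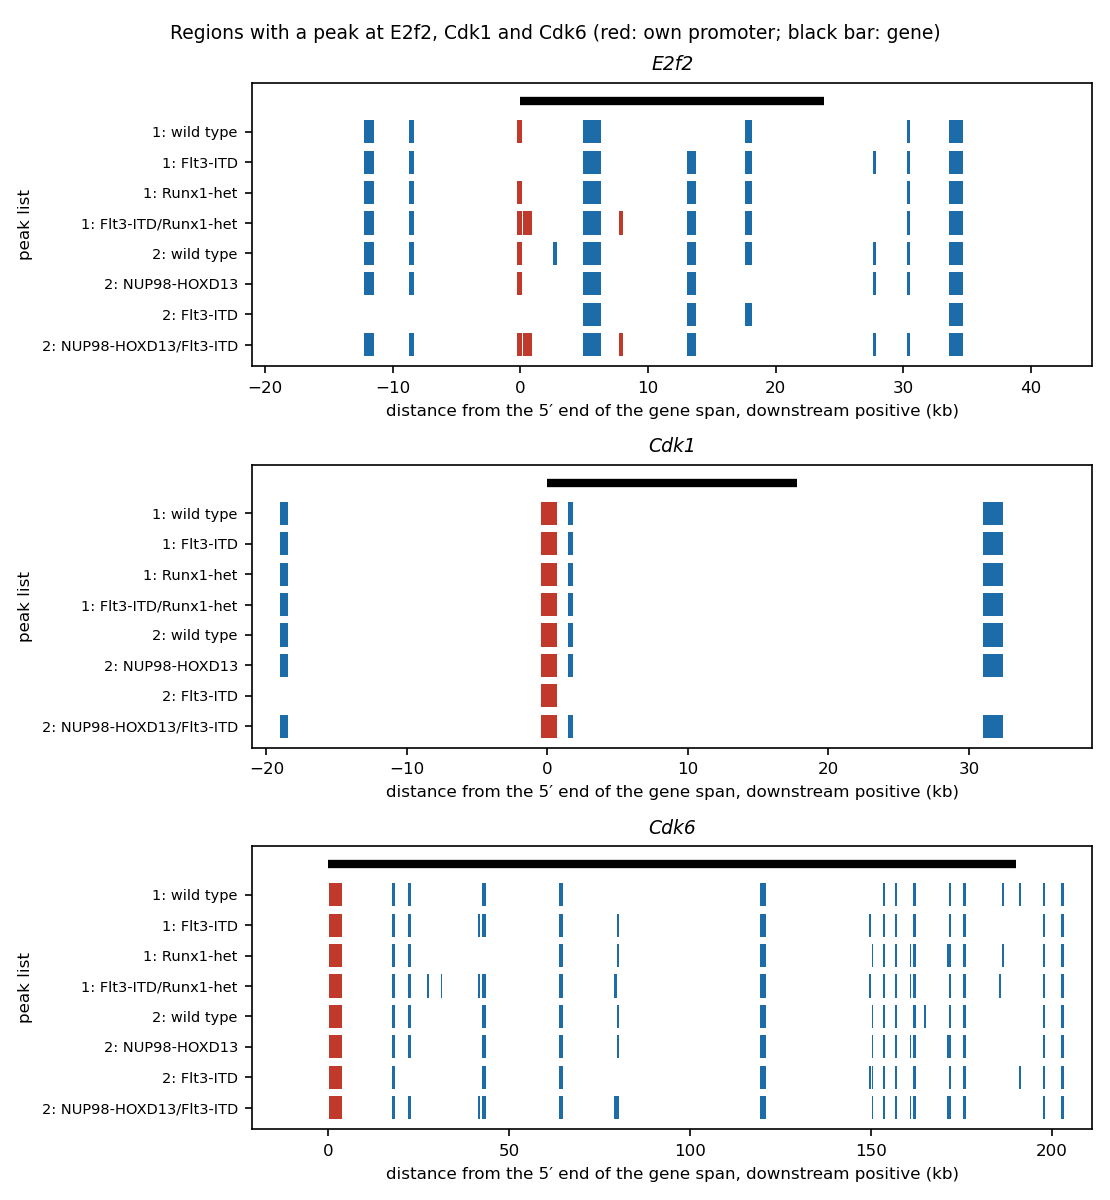
Regions with a peak at E2f2, Cdk1 and Cdk6 in each of the 8 peak lists (rows, set number and genotype), by distance from the 5′ end of the gene in kb, with own-promoter regions in red, other regions in blue and the gene as a black bar. The E2f2 promoter region is missing from both Flt3-ITD lists, set-2 Flt3-ITD holds the Cdk1 promoter alone, and 10 of the 25 distal Cdk6 regions run through all rows.

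Other regulators are described by their promoters and surroundings. Rbl1, the retinoblastoma relative p107, had the lowest promoter of those present in all lists, with −log10 p of 84.9, 84.5, 80.4 and 98.0 in set 1 and 70.2, 70.3, 11.4 and 77.6 in set 2. Set-2 Flt3-ITD was again the lowest, and here by fold (6.34, others 9.07 to 12.2) and within-list percentile (36.0, others 66.0 to 79.4) as well. Foxm1 had 109, 90.9, 107 and 108 in set 1 and 110, 88.6, 30.9 and 81.3 in set 2. E2f8 and Mybl2 reached 1213 and 960 in set-2 wildtype, and 2 of 10 and 1 of 7 of their distal regions were present in all 8 lists. Such counts per gene are small and take in any promoters of other genes. The near-gene shares were 29.7% outside promoters and 77.1% at promoters, so neither is a like comparison. Mcm5, with a promoter of similar rank, had 5 of 6.

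Gains and losses were then counted for each mutant list against the wildtype list of its own set. A gain is a region with a peak in the mutant list and none in the wildtype list, and a loss is the reverse. At the 41 genes set-1 Flt3-ITD gained 41 regions (13.5%, near-gene background 13.3%) and lost 16 (5.26%, background 7.19%). Runx1-het gained 36 (11.8%, background 14.5%) and lost 20 (6.58%, background 6.19%). Flt3-ITD/Runx1-het gained 51 (16.8%, background 15.4%) and lost 24 (7.89%, background 7.62%). In set 1 the Flt3-ITD losses and the Runx1-het gains were below the background, and the other shares were slightly above it. Gains outnumbered losses in each mutant.

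In set 2, in the lists as deposited, losses outnumbered gains in each mutant. NUP98-HOXD13 gained 19 regions (6.25%, background 8.36%) and lost 35 (11.5%, background 16.1%). Flt3-ITD gained 7 (2.30%, background 3.04%) and lost 77 (25.3%, background 28%). NUP98-HOXD13/Flt3-ITD gained 19 (6.25%, background 8.05%) and lost 33 (10.9%, background 17.1%). The gain shares and the loss shares at the cell cycle genes were below the near-gene shares in all 3 comparisons, which share 1 wildtype list. Split by class, NUP98-HOXD13 lost 2 of 82 promoter regions (2.44%, beside 5.61% of near-gene promoter regions) and 33 of 222 distal ones (14.9%, beside 17.9% of near-gene regions outside promoters). Flt3-ITD lost 7 promoter regions (8.54%, beside 12.1%) and 70 distal ones (31.5%, beside 30.8%), so its distal losses were not below the near-gene share. The double mutant lost 0 promoter regions (beside 5.61%) and 33 distal ones (14.9%, beside 19.1%).

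Lists of equal genotype from the sets differed as much as mutant and wildtype did. Set-2 wildtype gained 48 regions against set-1 wildtype (15.8%, background 17.4%) and lost 16 (5.26%, background 5.64%). Set-2 Flt3-ITD gained 8 against set-1 Flt3-ITD (2.63%, background 3.88%) and lost 71 (23.4%, background 23.1%). Genotype and list length cannot be told apart with 1 list per group. The balance also moved with the wildtype list used: against the wildtype list of the other set, the set-1 mutants gained 21, 18 and 33 regions and lost 28, 34 and 38, while NUP98-HOXD13 gained 40 and lost 24 and its double mutant gained 40 and lost 22. Set-2 Flt3-ITD kept its direction there, with 17 gained and 55 lost. Reduced to 84080 peaks each, set-2 Flt3-ITD gained 19 of the 257 regions left (7.39%, beside 6.97%) and lost 39 (15.2%, beside 18.2%). At that length NUP98-HOXD13 gained 22 (8.56%, beside 8.83%) and lost 20 (7.78%, beside 10.7%). NUP98-HOXD13/Flt3-ITD gained 26 (10.1%, beside 9.43%) and lost 17 (6.61%, beside 11.2%). At the cell cycle genes losses thus no longer outnumbered gains in these lists, while over near-gene regions they still did. In set 1, Flt3-ITD then gained 23 (8.95%, beside 10.2%) and lost 20 (7.78%, beside 7.87%). Runx1-het gained 20 (7.78%, beside 9.17%) and lost 16 (6.23%, beside 7.41%). The double mutant of set 1 gained 25 (9.73%, beside 12.1%) and lost 22 (8.56%, beside 8.72%).

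**Figure D4:**
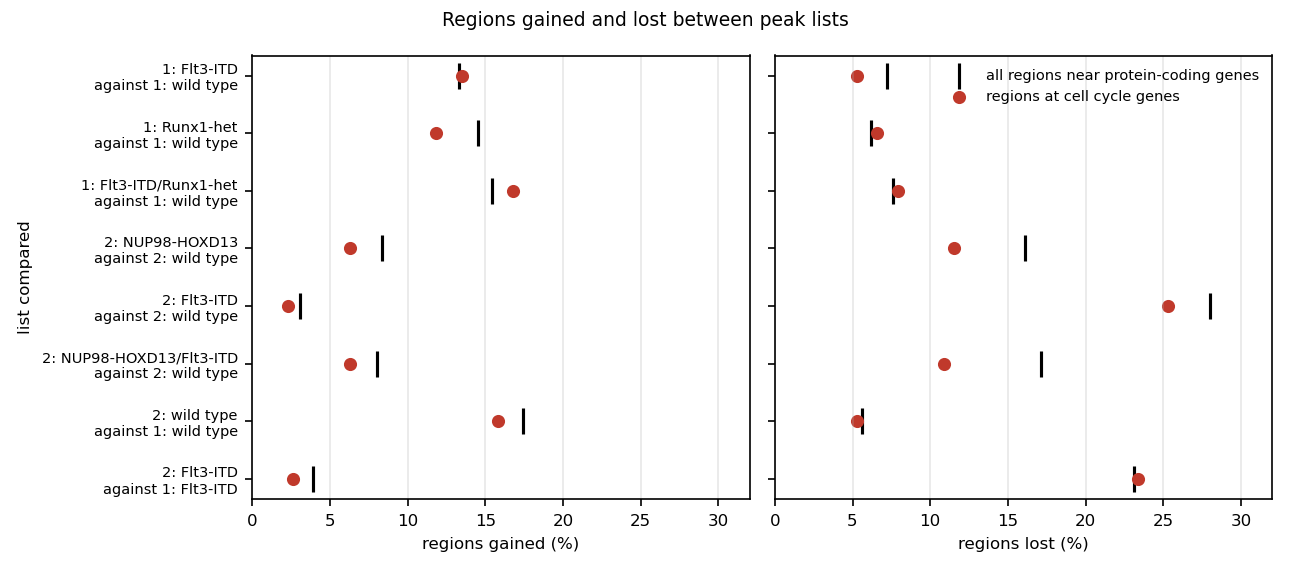
Share of regions gained (left) and lost (right) in percent for each comparison of peak lists (rows), with red points for the 304 regions at the cell cycle genes and black ticks for the 92740 near-gene regions. Points lie close to the ticks, with the widest gap for losses in NUP98-HOXD13/Flt3-ITD (10.9% beside 17.1%), and the rows for equal genotypes spread as far as those for mutants.

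The distal regions that followed a mutation were few. In the lists as deposited, no region was present in all 4 Flt3-ITD lists and absent from the other 4, or the reverse (0 each way). Within set 1, 10 regions were present in both Flt3-ITD lists and absent from both others (3.29%, beside 2.73% of near-gene regions), at Bub1b, Cdk6, Mcm3, Mybl2, Pcna, Rb1, Rbl1 and Top2a, and 3 were the reverse (beside 1.68%). The mixed split of the same 4 lists, single mutants against wildtype and double mutant, gave 9 and 3 (near-gene shares 2.17% and 1.001%). At these genes, in the lists as deposited, the Flt3-ITD division was thus about as frequent as one that follows no mutation. Within set 2, 0 regions were present only with Flt3-ITD and 9 only without it (2.96%, beside 4.25%), and the mixed split gave 2 and 10 (near-gene shares 0.327% and 3.54%). These counts moved with list length. With equal numbers of peaks 1 region, at Pcna, was absent from all Flt3-ITD lists and present in all others (0.389%, beside 0.131%). Set-1 Flt3-ITD then divided 8 and 6 regions (near-gene shares 2.56% and 1.79%), and the mixed split 5 and 2 (1.24% and 1.06%). Set-2 Flt3-ITD divided 1 and 3 (0.933% and 2.49%), and the mixed split 3 and 7 (0.673% and 2.17%).

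The presence of NUP98-HOXD13 divided 7 regions one way in set 2 (2.30%, beside 2.73%) and 2 the other way (beside 1.77%). Of the former, 1 was absent from all set-1 lists too, chr2:157201029-157201356 inside Rbl1, with 12.1 and 15.2 in these lists, a pattern of 0.849% of near-gene regions. Runx1-het divided 6 regions one way in set 1 (1.97%, beside 2.38%) and 3 the other way (beside 1.13%). Of these, 1 was present in no other list, chr7:135705819-135706330 inside Mki67, with 8.09 and 8.75, a pattern of 0.527% of near-gene regions. Both were low peaks. With equal numbers of peaks neither kept its pattern. The 1 region with the NUP98-HOXD13 pattern over all lists was then at Cdk6, and the 1 with the Runx1-het pattern at Mybl2. NUP98-HOXD13 then divided 9 and 4 regions in set 2 (near-gene shares 3.21% and 2.36%). Runx1-het divided 2 and 2 in set 1 (1.47% and 1.26%).

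Flt3-ITD was present in both sets, and its comparisons share no sample. Of the 304 regions 4 were gained in both sets, near Ccne1, Cdk6, Foxm1 and Rb1, and 6 were lost in both, near Bub1b, Ccnb2, Cdc6, E2f2 and Mki67. A further 20 were gained in set 1 and lost in set 2, and 1 was lost in set 1 and gained in set 2. Over near-gene regions the shares were 0.692% gained in both, 3.19% lost in both, 5.15% gained in set 1 and lost in set 2, and 0.277% the reverse. At the cell cycle genes, as near other genes, the most frequent of these was a gain in set 1 with a loss in set 2.

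A second list of 89 other cell cycle and replication genes, also chosen with earlier results known, was counted in the same way. All 89 were matched, and 87 had a promoter region in all 8 lists. The others, Kif2c and Ccnb3, had none in any list. The median percentile of their promoters was 96.3, close to the 95.9 of the 41 genes, and 258 of their 547 regions (47.2%) were present in all 8 lists. CHR stood in 37.5%, CCAAT in 54.5% and E2F in 19.3% of their 88 promoter entries. In set 2 this list lost 12.4% of its regions in NUP98-HOXD13 (near-gene share 16.1%), 27.1% in Flt3-ITD (28%) and 13.3% in the double mutant (17.1%). In set 1 it gained 10.6% in Flt3-ITD (near-gene share 13.3%), 10.2% in Runx1-het (14.5%) and 12.6% in the double mutant (15.4%), and lost 5.48%, 5.67% and 4.75% (7.19%, 6.19% and 7.62%).

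The labelled cell type was checked by its markers. Promoters of the progenitor genes Kit, Flt3, Cd34, Spi1, Gata2, Runx1 and Myb had a peak in all 8 lists (7 of 7). Those of Cd3e (T cells), Ly6g (neutrophils), Col1a1 (fibroblasts) and Alb (hepatocytes) had none in any list. Of the endothelial genes Pecam1 was found in 8 lists and Cdh5 in 4. For both of these, as for Spi1 and Col1a1, either end of the span was counted, since the table gave no start. Any part of endothelial cells in the results was not tested.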

How the data were processed

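ATAC-seq peak lists of 8 groups with 2 samples each were used, 1 list per group, per the labels. The submitters' processing notes name Bowtie2, MACS2 and the builds mm10 and GRCm38, with no versions. The labels give no peak threshold, filter or read shifting. The authors' deposited peaks carry a fold enrichment (a ratio), a −log10 p, a −log10 q and a score whose meaning is not stated. How the samples of a group were combined for peak calling is not stated.

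Peaks overlapping by at least 1 bp were merged over the lists with Python 3.11.15, pandas 2.3.3 and numpy 2.4.6, tested on simulated data. Genes and promoters came from RefSeq tables of GRCm38.p6. Members and gene lists were chosen with earlier results of these data known. The genes named were those with no promoter peak in some list, the 10 highest gained or lost regions (1 per gene), the 5 highest and 5 lowest promoter percentiles, regions that follow a mutation, the 5 genes with most distal regions (6 with ties) and Cdk1. Further genes were named to fill each role. Presence and within-list percentiles were used to compare lists. The authors' fold and −log10 p are set side by side as a description, and with 1 list per group no test was made. Alternatives were flank, promoter window, −log10 q minimum, merging gap, overlap, equal list length, ranking column, leaving out the shortest list and the other wildtype list. Some markers of other cell types are not reported here.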

Additional observations from a re-analysis of the deposited data

Results flagged for a closer look

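In the lists as deposited, Flt3-ITD moved in opposite directions in the sets. At the 41 genes, regions gained minus regions lost came to 25 in set 1 and to -70 in set 2. Each value rests on 1 list per group, and the difference was not tested. Near-gene regions moved the same way, with 13.3% gained and 7.19% lost in set 1 and 3.04% and 28% in set 2. At the 41 genes these shares were 13.5% and 5.26% in set 1 and 2.30% and 25.3% in set 2. The set-2 Flt3-ITD list was the shortest of the 8, with 84080 peak summits, and the set-2 wildtype list the longest, with 138514. With equal numbers of peaks the difference between the sets was smaller, with 23 gained and 20 lost in set 1 and 19 gained and 39 lost in set 2. The near-gene shares were then 10.2% and 7.87% in set 1 and 6.97% and 18.2% in set 2. Against the wildtype list of the other set, losses outnumbered gains in both sets, with 21 gained and 28 lost in set 1 and 17 gained and 55 lost in set 2. The near-gene shares were 8.45% and 14.2% in set 1 and 5.61% and 18.8% in set 2.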

How the results depend on the processing

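No paired analysis was possible because each group had 1 list, and for the same reason no replicate could be left out. A flank of 10 kb moved losses to 10 in set-1 Flt3-ITD, 12 in Runx1-het, 14 in Flt3-ITD/Runx1-het, 23 in NUP98-HOXD13 and 46 in set-2 Flt3-ITD, and NUP98-HOXD13 gains to 11. A flank of 50 kb gave 236 regions in all 8 lists, gains of 70, 72, 89, 37, 16 and 32 (set-1 Flt3-ITD, Runx1-het, Flt3-ITD/Runx1-het, NUP98-HOXD13, set-2 Flt3-ITD, NUP98-HOXD13/Flt3-ITD) and losses of 33, 32, 64, 140 and 59 (the same order without Flt3-ITD/Runx1-het). Both change the number of regions by construction. Requiring a peak to cover 50% of its region raised set-1 Flt3-ITD losses to 27. A −log10 q of at least 5 left 2 set-2 Flt3-ITD gains, and of at least 10 left 1, with 10 NUP98-HOXD13 gains. With equal numbers of peaks the gains were 23 in set-1 Flt3-ITD, 20 in Runx1-het, 25 in Flt3-ITD/Runx1-het, 22 in NUP98-HOXD13, 19 in set-2 Flt3-ITD and 26 in NUP98-HOXD13/Flt3-ITD, and the set-2 losses 20 in NUP98-HOXD13, 39 in set-2 Flt3-ITD and 17 in NUP98-HOXD13/Flt3-ITD. Ranking by fold enrichment lowered the median promoter percentile to 89.2. Against the wildtype list of the other set, an alternative chosen after seeing the data, gains were 21, 18, 33, 40, 17 and 40 in the order above and losses 28, 34, 38, 24, 55 and 22. Each set-1 mutant then lost more regions than it gained, and NUP98-HOXD13 with and without Flt3-ITD gained more than it lost, so their direction changed with the wildtype list, while that of set-2 Flt3-ITD did not. With equal numbers of peaks, both NUP98-HOXD13 lists also gained more than they lost. Other promoter windows, merging gaps of 250 bp and leaving out the shortest list moved no count by over 1.5 times.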
